A study of Mus musculus with 5 samples.

Results

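The nuclei described here are those that the authors' annotation of healthy mouse kidney labels MC, an abbreviation that the sources used here do not spell out, in the sNucDrop-seq and DroNc-seq libraries. They were taken by that label and by the library prefix of their barcodes, and they numbered 293 of 17542 barcodes in all 5 libraries. The sNucDrop-seq library held 147 of them among 3011 nuclei (4.88%, exact 95% interval 4.14 to 5.71) and the DroNc-seq library 146 among 2769 (5.27%, 4.47 to 6.17). A further 16 healthy nuclei in the 10x library and 7 whole cells in the Drop-seq library carried the same label and are given as values only. The question was which stromal cells the label holds: mesangial cells, pericytes, smooth muscle or fibroblasts.

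All libraries were of mouse kidney; the labels' cell dissociation protocol names the strain C57BL/6, and the nucleus protocol names none. The nucleus libraries came from kidney pieces broken open in a detergent buffer, strained and spun. sNucDrop-seq and DroNc-seq are bead-in-droplet methods that tag the RNA of single nuclei, 10x is a commercial droplet system, and Drop-seq was run on enzymatically dissociated cells sorted on light scatter. The 10x library of obstructed kidney was taken on day 14 of UUO, unilateral ureteral obstruction, in which tying off 1 ureter scars the kidney. Its annotation has no MC label and names fibroblasts Fib.1 (330 nuclei) and Fib.2 (68). Neither the sex nor the age of the animals, nor their number, is given in the labels used here.

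Each group had 1 library, and an annotation label rests on the expression of the nuclei it names, so MC nuclei against the rest are a description with no test. UMIs, which count RNA molecules, were summed over the barcodes of a label and library and scaled to counts per 1000000 (CPM). Intervals are exact 95% intervals and cover counting error only. Malat1, a nuclear RNA, made 10.1% and mitochondrial RNA 0.35% of the UMIs of sNucDrop-seq MC nuclei, and 11.5% and 0.184% of those of DroNc-seq MC nuclei. The MC nuclei held 161318 UMIs in sNucDrop-seq (median 849 per nucleus, 534 to 9730) and 261746 in DroNc-seq (median 1378.5, 773 to 7939). Their median number of genes was 576 in sNucDrop-seq and 868 in DroNc-seq. The 2 libraries shared 0 barcode sequences. They stood apart by sex-linked RNA: in MC nuclei Xist, transcribed from the inactive X chromosome, had 0 counts in sNucDrop-seq and 890.2 CPM in DroNc-seq, and 4 Y-linked genes summed to 502.1 CPM in sNucDrop-seq and 11.5 CPM in DroNc-seq. Platform and animal therefore cannot be told apart in anything that differs between them.

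The stromal cells that support the kidney's tubules and vessels are of several kinds. Mesangial cells sit between the glomerular capillaries and hold the tuft together, pericytes wrap the peritubular capillaries, smooth muscle cells line arteries and arterioles, renin cells sit at the glomerular pole, and fibroblasts lay down collagen between the tubules. They descend largely from embryonic kidney stroma and many carry the platelet-derived growth factor (PDGF) receptor beta, so single genes seldom separate them. PDGF receptor alpha is the receptor by which resident fibroblasts are usually told from pericytes and smooth muscle, and in injury the stroma makes the scar matrix.

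Of the fibroblast, mesangial, pericyte and smooth muscle lists given below, the fibroblast list had the highest summed ratio over the other labels in both libraries. The 3 genes taken as markers of the label were all far above the other labels in both libraries. Pdgfra, the PDGF receptor alpha, had 67 counts or 415.3 CPM (321.9 to 527.5) in sNucDrop-seq MC nuclei, against 5.59 CPM in all other labels. In DroNc-seq it had 96 counts or 366.8 CPM (297.1 to 447.9) in MC nuclei, against 3.93 CPM elsewhere. These are log2 ratios of 6.21 (5.53 to 6.94) and 6.55 (5.87 to 7.28), the largest in each library among the 16 genes named below as leading the label. Abca8a, a member of the ABC transporter family, had 725.3 CPM in MC nuclei and 13.2 CPM in other labels in sNucDrop-seq, and 469.9 CPM in MC nuclei and 7.14 CPM in other labels in DroNc-seq. Pdgfrb, the receptor shared by most mural and stromal cells, had 303.7 CPM in MC nuclei and 8.73 CPM in other labels in sNucDrop-seq, and 206.3 CPM in MC nuclei and 6.6 CPM in other labels in DroNc-seq. After every barcode was thinned to 500 UMIs, 49.7% of sNucDrop-seq MC nuclei and 41.1% of DroNc-seq MC nuclei had a UMI of the 3 label markers, against 1.47% and 0.877% of the other nuclei of those libraries. By these markers the label was stromal in both libraries.

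The promoters of 3 leading genes are shown because these genes led the label in both libraries: Pdgfra, the receptor; Lama2, a laminin chain of the basement membrane; and Abca8a. They are RefSeq windows of build GRCm38.p6, from 250 bases before the start of the gene to 50 after it, on the gene's own strand. Pdgfra is at chr5:75152001-75152300 (plus strand), Lama2 at chr10:27616893-27617192 (minus) and Abca8a at chr11:110095888-110096187 (minus). Capitals mark TGACAG, the core site of the MEIS homeodomain factors, and in Lama2 also a CArG box, the site of serum response factor.
Pdgfra: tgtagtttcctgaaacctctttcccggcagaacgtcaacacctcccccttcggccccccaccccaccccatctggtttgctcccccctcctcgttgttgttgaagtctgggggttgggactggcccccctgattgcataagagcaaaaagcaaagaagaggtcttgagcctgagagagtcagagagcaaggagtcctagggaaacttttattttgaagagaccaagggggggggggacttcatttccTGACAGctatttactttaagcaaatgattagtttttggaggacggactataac
Lama2: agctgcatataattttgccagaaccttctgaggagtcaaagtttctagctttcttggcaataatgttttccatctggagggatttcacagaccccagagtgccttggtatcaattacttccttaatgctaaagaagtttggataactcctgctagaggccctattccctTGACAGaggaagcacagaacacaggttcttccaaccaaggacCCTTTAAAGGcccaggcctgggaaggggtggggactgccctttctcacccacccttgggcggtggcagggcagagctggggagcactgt
Abca8a: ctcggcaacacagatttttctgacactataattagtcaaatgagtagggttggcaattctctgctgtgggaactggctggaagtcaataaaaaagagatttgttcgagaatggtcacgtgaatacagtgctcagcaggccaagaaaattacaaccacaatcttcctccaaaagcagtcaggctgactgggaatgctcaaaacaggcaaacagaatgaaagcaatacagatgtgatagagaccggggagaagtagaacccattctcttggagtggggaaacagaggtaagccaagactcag

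A window was available for 12 of the 16 leading genes. Both strands were searched for TGACAG, for CAGGTG (a ZEB site), for the early B-cell factor (EBF) motif, for TATAAA and for the CArG box, and no match of one motif overlapped a match of another. TGACAG stood in 4 of the 12 windows and in 19.2% of all 32851 promoter windows. CAGGTG stood in 2 (20.2% of all windows), the CArG box in 1 (1.63%), and the EBF motif (0.904%) and TATAAA (13.6%) in 0. A match is only a match of letters.

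Across all genes, 1741 of 12738 measured genes (13.7%) were at least 2-fold higher in MC nuclei than in the other labels in sNucDrop-seq, and 1809 of 13154 (13.8%) in DroNc-seq. A gene counted as measured with at least 20 counts over the 2 sums. At least 2-fold lower were 1590 (12.5%) in sNucDrop-seq and 1968 (15%) in DroNc-seq. With the proximal tubule labels left out of the rest, 969 genes were higher in sNucDrop-seq and 1159 in DroNc-seq. Of 12334 genes measured in both libraries, 865 (7.01%) were 2-fold higher in both. With intervals clear of 0 in both, 647 were higher in both, 340 lower in both and 4 went opposite ways. Some list members passed the filter only with their MC counts and so had to be higher; counts without them are given for the lists concerned. The median log2 ratio over all measured genes was 0.10 in sNucDrop-seq and 0.06 in DroNc-seq.

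The 16 genes that lead the label by the interval bound nearest to 0 in both libraries are a mix of matrix, signalling and channel genes. Pdgfra and Abca8a are given above. Lama2 had 830.7 CPM in MC nuclei and 27.3 CPM elsewhere in sNucDrop-seq, and 966.6 CPM in MC nuclei and 30.5 CPM elsewhere in DroNc-seq. Matrix genes beside it were Fbln5, an organizer of elastic fibres (log2 ratios 5.40 in sNucDrop-seq and 5.41 in DroNc-seq), and Adamts5, a protease of proteoglycans (5.59 and 5.12). Adamts5 was also present in the DroNc-seq LH(DL) label, at 226.8 CPM.

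The other leading genes act inside the cell or at its membrane. Hsd11b1, the enzyme that regenerates active glucocorticoid, had 818.3 CPM in MC nuclei and 29.8 CPM elsewhere in sNucDrop-seq, and 657.1 CPM in MC nuclei and 12.5 CPM elsewhere in DroNc-seq. Kcnt2 and Kcnd3 are potassium channel subunits, and their log2 ratios were 4.93 and 4.95 in sNucDrop-seq and 5.13 and 5.14 in DroNc-seq. Slco2b1, an organic anion transporter, stood at 5.01 in sNucDrop-seq and 5.20 in DroNc-seq. Rasgrp2, an exchange factor for small GTPases (6.15 and 5.66), and Rerg, a Ras-like GTPase (5.52 and 5.80), are signalling genes. Daam2, a formin that podocytes also express, reached 4.80 in sNucDrop-seq and 5.09 in DroNc-seq, and the Pod label held 108.2 CPM of it in sNucDrop-seq and 292.4 CPM in DroNc-seq. Ripor3 (6.04 and 5.62), B3galt1, a galactosyltransferase (5.21 and 5.63), and Ak5, an adenylate kinase (5.08 and 5.74), complete those described.

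**Figure D1:**
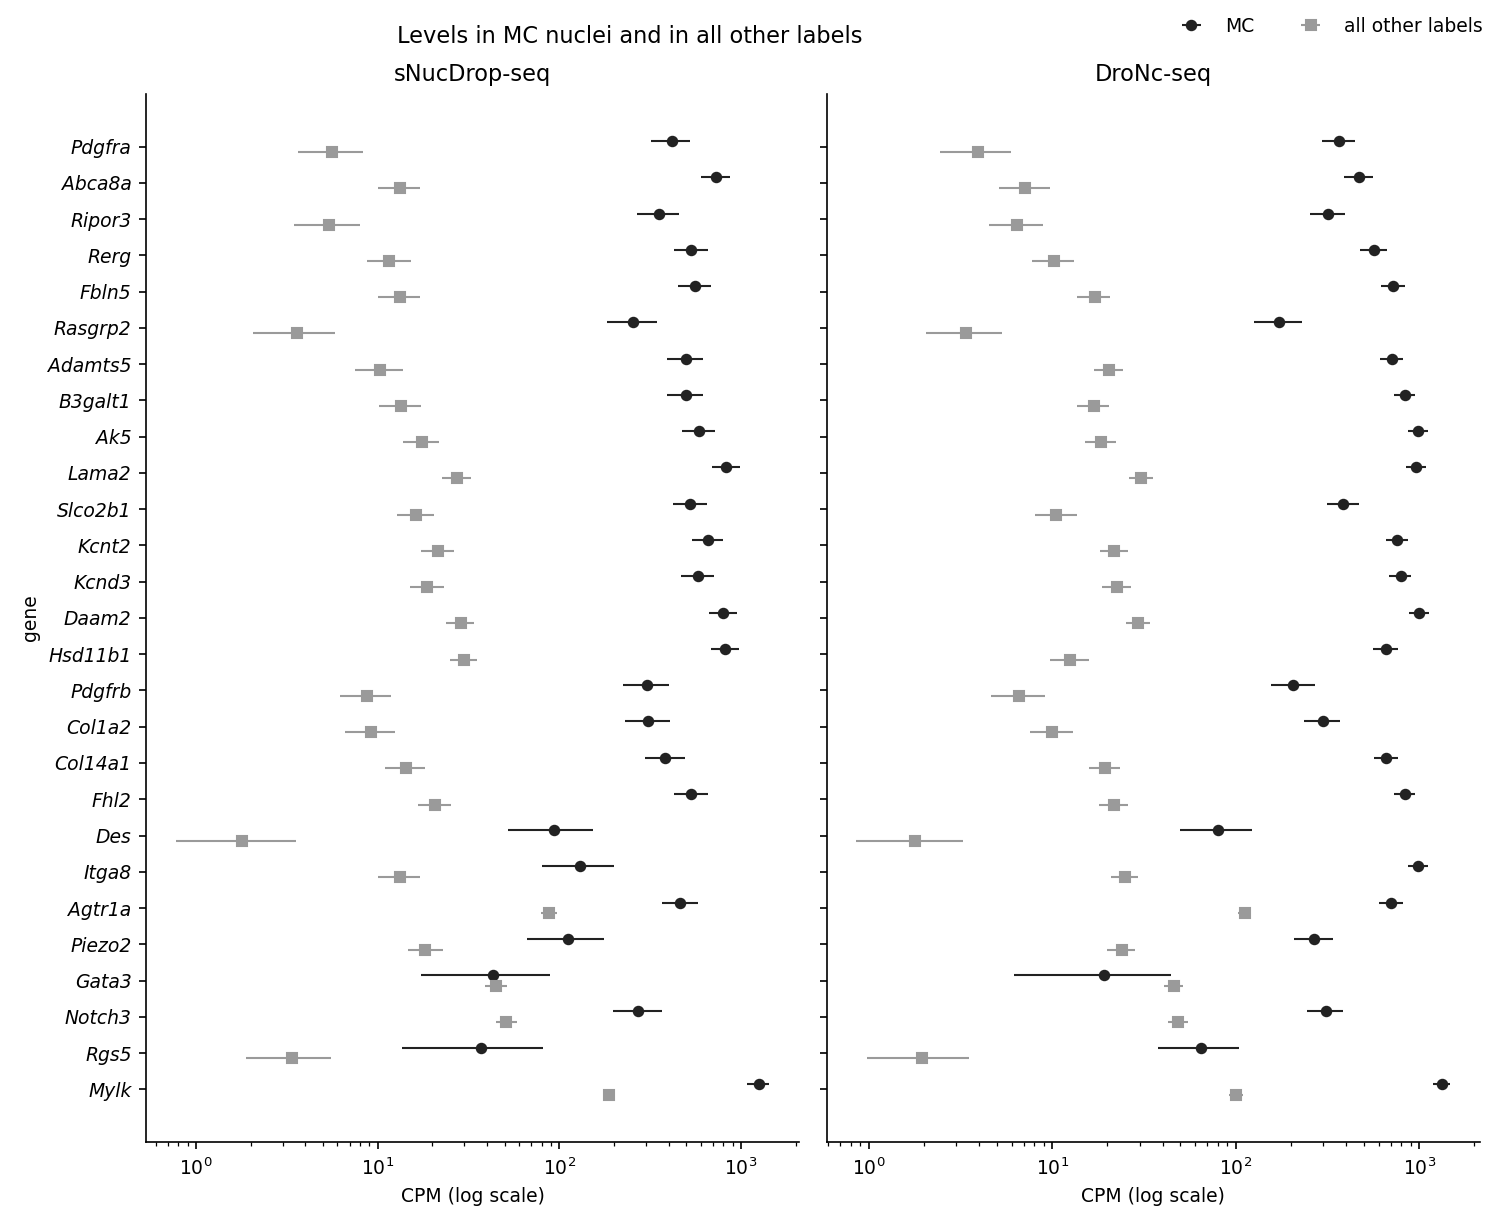
Level of 15 leading genes and 12 list members in MC nuclei (circles) and in all other labels of the same library (squares), in CPM on a log axis, with exact 95% counting intervals. MC nuclei stand to the right of the other labels for nearly all genes; the 2 intervals of Gata3 overlap in sNucDrop-seq, and in DroNc-seq its MC value of 19.1 CPM lies below the 45.9 CPM of the other labels.

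The 6 genes lowest in MC nuclei included transporters and enzymes of the tubule epithelium. Slc34a1, the sodium phosphate transporter of the proximal tubule, still had 1469 CPM in sNucDrop-seq MC nuclei, against 3937 CPM in the other labels, and 989.5 CPM in DroNc-seq MC nuclei, against 2840 CPM. Pdzk1, a brush border scaffold, and Dao, an amino acid oxidase of the proximal tubule, had log2 ratios of -1.60 and -2.07 in sNucDrop-seq and -1.94 and -1.87 in DroNc-seq. Cndp1, a carnosinase, stood at -2.71 in sNucDrop-seq and -2.96 in DroNc-seq, Slc4a9, an anion exchanger of type B intercalated cells, at -2.74 and -3.79, and B3gat2, a glucuronosyltransferase, at -3.36 and -2.14. The proximal tubule list held 7674 CPM in sNucDrop-seq MC nuclei, 53.3% of its level in nuclei labelled proximal tubule, and 3725 CPM in DroNc-seq MC nuclei, 31.2% of it. Across the other sNucDrop-seq labels outside the proximal tubule that share ran between 40.7% and 67.6%, and in DroNc-seq between 23.2% and 50.6%, so the MC share lay within the range of the other labels.

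Of the 19 fibroblast genes, 10 were measured in sNucDrop-seq, and 8 of them were higher in MC nuclei by 2-fold or more, with 0 lower. In DroNc-seq 12 were measured, 11 higher and 0 lower, or 10 of 11 higher without Tcf21. The label markers Pdgfra and Abca8a are among the 19 genes. The list's counts, sums and shares were not repeated without them. The median log2 ratio of measured members was 4.97 in sNucDrop-seq and 4.96 in DroNc-seq, beside the medians near 0 over all genes given above. Summed, the fibroblast list held 4928 CPM in MC nuclei and 291.1 CPM in the other labels in sNucDrop-seq, a log2 ratio of 4.08 (3.95 to 4.21). In DroNc-seq it held 5666 CPM in MC nuclei and 208.1 CPM in the other labels, a log2 ratio of 4.77 (4.66 to 4.88). The next highest label was Mac in both libraries, with 925.1 CPM in sNucDrop-seq and 518.7 CPM in DroNc-seq. The 43 sNucDrop-seq Mac nuclei held 207.3 CPM of Abca8a.

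Among fibrillar and linking collagens, Col1a2 had 309.9 CPM in sNucDrop-seq and 298.0 CPM in DroNc-seq MC nuclei, against 9.17 and 10 CPM elsewhere. Col14a1, a collagen that associates with fibrils, had 384.3 CPM in sNucDrop-seq and 660.9 CPM in DroNc-seq MC nuclei, against 14.3 and 19.3 CPM elsewhere. Col6a3, a microfibrillar collagen chain, had log2 ratios of 5.01 and 5.04, and Col3a1 4.14 and 4.93. All 4 collagens were thus low outside the label. Tcf21, a transcription factor of kidney stroma, was measured only in DroNc-seq, at 4.33. Other fibroblast genes were rare or absent in these nuclei. Dcn, the proteoglycan decorin, had 3 counts in sNucDrop-seq and 16 in DroNc-seq, Col1a1 had 0 and 7, and Scara5 had 1 in each. Nt5e, the adenosine-forming ectonucleotidase of cortical fibroblasts, had 167.4 CPM in MC nuclei and 150.4 CPM elsewhere in sNucDrop-seq, a log2 ratio of 0.15 (-0.46 to 0.71), and 156.6 CPM in MC nuclei and 64.6 CPM elsewhere in DroNc-seq, 1.28 (0.77 to 1.75). Nt5e and Scara5 were the measured fibroblast genes that did not reach 2-fold in sNucDrop-seq, and in DroNc-seq Scara5 alone did not.

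**Figure D2:**
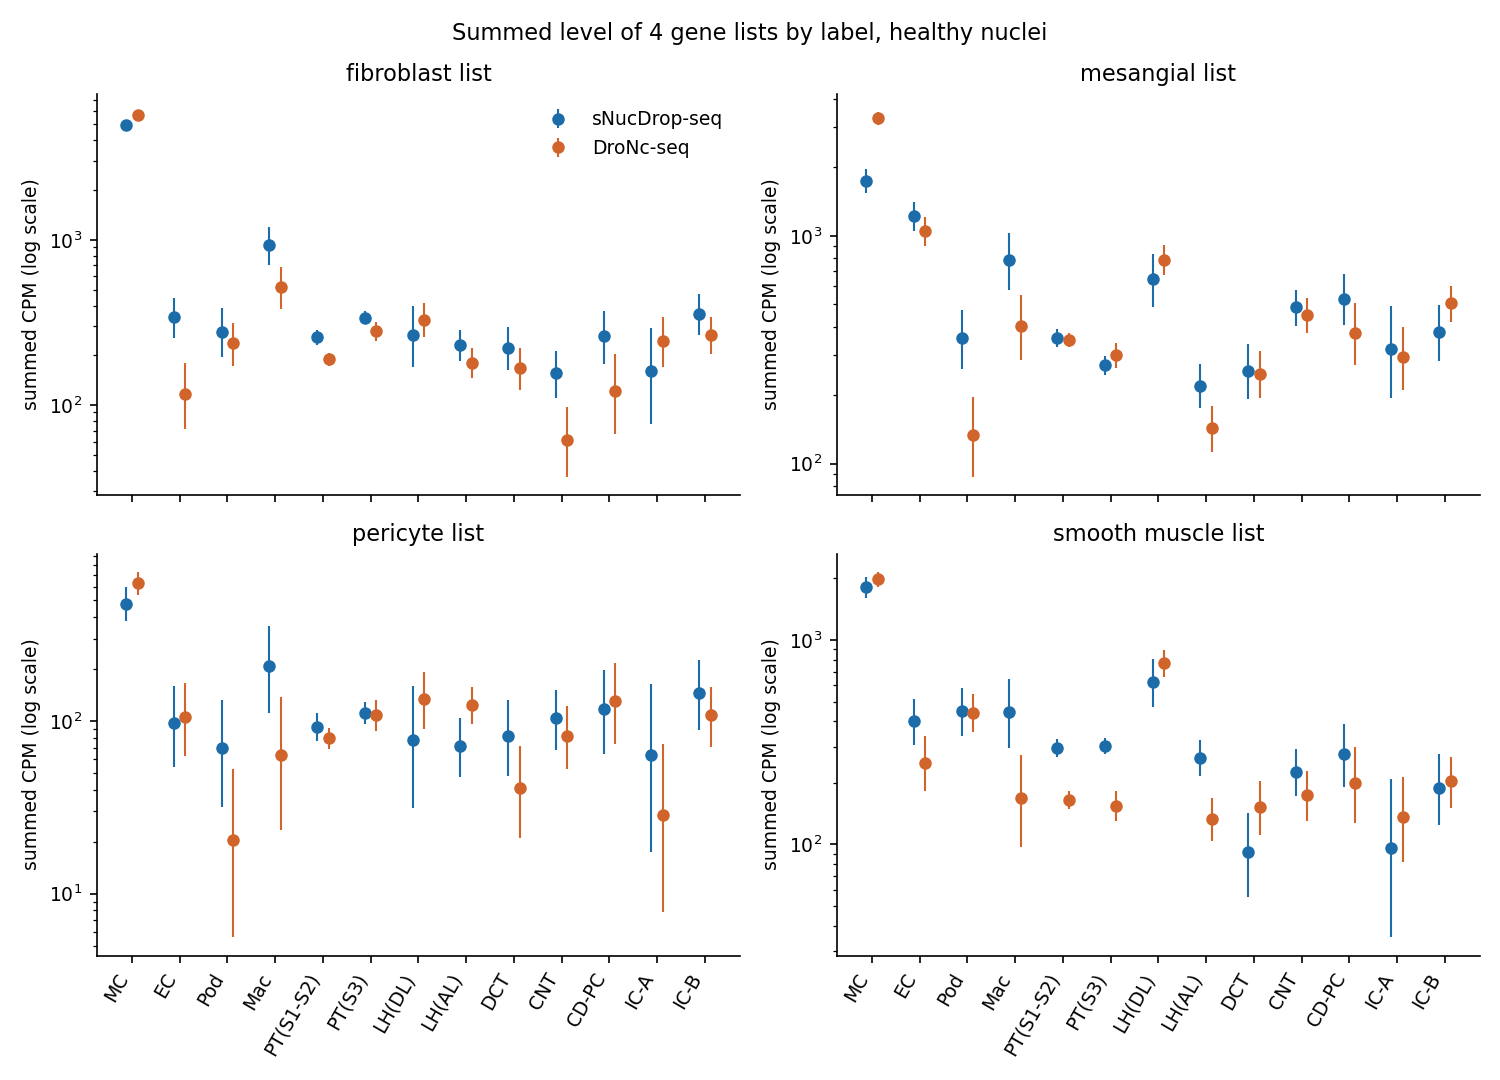
Summed level of the fibroblast, mesangial, pericyte and smooth muscle lists by label in the 2 healthy nucleus libraries, in CPM on a log axis, with exact 95% counting intervals. MC has the highest sum of each list in both libraries, and the gap to the next label is widest for the fibroblast list and narrowest for the mesangial list in sNucDrop-seq, where EC held 1218 CPM.

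The mesangial list was higher too, but not as a whole. Of its 11 genes 10 were measured in each library. Past 2-fold were 7 higher and 0 lower in sNucDrop-seq, and 9 higher and 1 lower in DroNc-seq. Without Des these were 6 of 9 higher in sNucDrop-seq and 8 of 9 in DroNc-seq, with medians of 1.38 and 2.65. The median log2 ratio was 1.89 in sNucDrop-seq and 3.07 in DroNc-seq, and that of the sums 2.27 (2.08 to 2.45) and 3.19 (3.07 to 3.31). Gata3, the transcription factor by which mesangial cells are often named, was not high: it had 7 counts or 43.4 CPM in sNucDrop-seq MC nuclei, against 44.8 CPM elsewhere, and 5 counts or 19.1 CPM in DroNc-seq MC nuclei, against 45.9 CPM elsewhere (log2 ratio -1.26, -2.90 to -0.02). It was highest in the collecting duct label CD-PC, at 336.6 CPM, in sNucDrop-seq and in the connecting tubule label CNT, at 294.6 CPM, in DroNc-seq.

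Other mesangial genes were high. Des, the intermediate filament desmin, had 93 CPM in sNucDrop-seq and 80.2 CPM in DroNc-seq MC nuclei, against 1.79 and 1.78 CPM elsewhere. It was measured only with the help of its 15 and 21 counts in MC nuclei, since the other labels held 8 and 10, so it had to be higher. Fhl2, a LIM domain protein of muscle and stroma, had 533.1 and 832.9 CPM, against 20.6 and 21.6 CPM elsewhere. Agtr1a, the angiotensin II receptor, had 464.9 CPM in sNucDrop-seq and 703.0 CPM in DroNc-seq MC nuclei, against 87.9 and 111.9 CPM elsewhere. Itga8, an integrin chain of mesangial cells that binds nephronectin, differed by library: it had 21 counts or 130.2 CPM in sNucDrop-seq MC nuclei and 258 counts or 985.7 CPM in DroNc-seq MC nuclei, with log2 ratios over the other labels of 3.30 (2.51 to 4.04) and 5.30 (5.00 to 5.61). Piezo2, a mechanically gated channel, was about level with endothelium: 111.6 CPM in MC nuclei and 109.6 CPM in EC nuclei of sNucDrop-seq, and 267.4 CPM in MC nuclei and 274.3 CPM in EC nuclei of DroNc-seq. Igfbp5, a secreted binding protein, was higher in EC in both libraries. Its MC level was 254.2 CPM in sNucDrop-seq, against 792.8 CPM in EC, and 183.4 CPM in DroNc-seq, against 431.8 CPM in EC. The EC label was the next highest for the list sum, with 1218 CPM in sNucDrop-seq and 1050 CPM in DroNc-seq, against 1748 and 3286 CPM in MC. The highest label for a mesangial gene was MC for 5 of the 10 listed in each library, and for a fibroblast gene it was MC for 10 of 16 in sNucDrop-seq and 11 of 14 in DroNc-seq.

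Of the 4 lists, pericyte genes had the fewest measured members. Of 11 genes, 4 were measured in sNucDrop-seq, 3 higher and 1 lower (Cspg4, 1 count), and 6 in DroNc-seq, all higher; the medians were 2.27 and 3.19. Without Rgs5, and in DroNc-seq Mcam, these were 2 of 3 and 4 of 4 higher. In barcodes of at least 1000 UMIs the log2 ratio of the sums in sNucDrop-seq was 1.60, against 2.25 in all. The list held 477.3 CPM in MC nuclei and 100.5 CPM elsewhere in sNucDrop-seq, and 626.6 CPM in MC nuclei and 87.8 CPM elsewhere in DroNc-seq. Notch3, a receptor of mural cells, had 272.8 CPM in MC nuclei and 51.2 CPM elsewhere in sNucDrop-seq, and 309.5 CPM in MC nuclei and 48.6 CPM elsewhere in DroNc-seq. Abcc9, a subunit of the pericyte potassium channel, had log2 ratios of 2.13 in sNucDrop-seq and 3.48 in DroNc-seq. The pericyte marker Rgs5, a regulator of G-protein signalling, had 6 counts in sNucDrop-seq and 17 in DroNc-seq MC nuclei, and Kcnj8 had 4 and 9.

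Smooth muscle genes were higher in a similar pattern. Of 11 genes 5 were measured in sNucDrop-seq with 4 higher and 0 lower, and 8 in DroNc-seq with all higher; the medians were 3.43 and 4.09. Without members measured only with their MC counts (Lmod1 in sNucDrop-seq, and Myh11, Tagln and Tpm2 in DroNc-seq) these were 3 of 4 and 5 of 5 higher. Mylk, myosin light chain kinase, had 1252 CPM in MC nuclei and 188.9 CPM elsewhere in sNucDrop-seq, and 1326 CPM in MC nuclei and 100.5 CPM elsewhere in DroNc-seq. Myh11, the smooth muscle myosin heavy chain, had 14 counts (log2 ratio 3.43) in sNucDrop-seq and 12 (4.30) in DroNc-seq, in 5 and 8 nuclei. Lmod1, an actin nucleator of smooth muscle, reached 4.45 in sNucDrop-seq and 4.65 in DroNc-seq. Acta2, alpha smooth muscle actin, had 8 counts in sNucDrop-seq and 20 in DroNc-seq MC nuclei, or 49.6 and 76.4 CPM.

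Renin RNA was held by few nuclei. Ren1, renin, had 8 counts in 1 sNucDrop-seq nucleus, and 30 counts in 2 DroNc-seq nuclei with 29 of them in 1 nucleus. Akr1b7, the other gene of renin cells on the list, was listed at 0 in both. In the UUO library a JGA label of 46 nuclei held 1639 CPM of Ren1 and 915.4 CPM of Akr1b7.

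Stromal transcription factors were largely higher, though many are shared with endothelium. Of 16 factors 11 were measured in each library, 7 higher in sNucDrop-seq and 8 in DroNc-seq and 0 lower, with medians of 2.09 and 2.38. Without Prrx1 these were 6 and 7 of 10, with medians of 1.86 and 2.19. Meis1, a homeodomain factor of the stromal lineage, had 489.7 CPM in MC nuclei and 46.8 CPM elsewhere in sNucDrop-seq, and 848.2 CPM in MC nuclei and 46.6 CPM elsewhere in DroNc-seq. Prrx1, a mesenchymal homeobox gene, had log2 ratios of 4.38 and 6.10 on 9 and 32 counts, against 12 and 10 in the other labels, and was likewise measured only with the MC counts. Ebf1 and Meis2 show the overlap: Ebf1 had 818.3 CPM in MC and 715.4 CPM in EC nuclei of sNucDrop-seq, and 1521 CPM in MC and 1745 CPM in EC nuclei of DroNc-seq. Meis2 had 1413 CPM in MC and 4086 CPM in EC nuclei of sNucDrop-seq, and 2201 CPM in MC and 5071 CPM in EC nuclei of DroNc-seq. Foxd1, the factor of embryonic kidney stroma, had 0 counts in both sets of MC nuclei.

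Genes of contractile and vasoactive signalling were higher in part. Over all measured genes 13.7% were higher and 12.5% lower in sNucDrop-seq, and 13.8% and 15% in DroNc-seq. Of the list's 16 gene symbols 13 were measured in each library. Gucy1a1 and Gucy1b1, not measured, are newer symbols of Gucy1a3 and Gucy1b3, which were measured. In sNucDrop-seq 5 were higher and 0 lower. In DroNc-seq 7 were higher and 2 lower (Adra1a and Ptger3, an adrenergic and a prostaglandin receptor). The medians were 0.76 and 1.00. Without Gucy1b3 in sNucDrop-seq and Cacna1c in DroNc-seq, 4 and 6 of 12 were higher. Prkg1, a protein kinase activated by cyclic GMP, had 2473 CPM in MC nuclei and 202.5 CPM elsewhere in sNucDrop-seq, and 4619 CPM in MC nuclei and 266.0 CPM elsewhere in DroNc-seq. Gucy1a3 and Gucy1b3, subunits of the guanylate cyclase that nitric oxide activates, had log2 ratios of 4.18 and 5.18 in sNucDrop-seq and 5.04 and 4.32 in DroNc-seq. Pde3a, a phosphodiesterase that breaks down cyclic nucleotides, reached 3.29 in sNucDrop-seq and 4.41 in DroNc-seq, and Cacna1c, a calcium channel of smooth muscle, 3.65 and 5.80.

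In the PDGF and TGF-beta group several receptors were high and the ligand Pdgfc was low. Of 13 genes 11 were measured in sNucDrop-seq with 6 higher and 1 lower, and 12 in DroNc-seq with 7 higher and 1 lower. The label markers Pdgfra and Pdgfrb are among those higher, and the counts were not repeated without them. Over all measured genes 12.5% were lower in sNucDrop-seq and 15% in DroNc-seq. The coreceptors Tgfbr3 and Eng had log2 ratios of 2.15 and 3.29 in sNucDrop-seq and 1.82 and 3.18 in DroNc-seq, and Eng was higher still in EC. Pdgfc, a ligand of the PDGF receptor alpha, was the lower gene in both, with 68.2 CPM in MC nuclei and 157.3 CPM elsewhere in sNucDrop-seq, and 80.2 CPM in MC nuclei and 198.1 CPM elsewhere in DroNc-seq. Pdgfd, a ligand of the beta receptor, had log2 ratios of -0.11 and 0.73.

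Basement membrane and elastic matrix genes were higher than in the pooled other labels in both libraries. Their sum was 1692 CPM in MC and 1051 CPM in EC, the next highest label, in sNucDrop-seq. In DroNc-seq it was 2541 CPM in MC and 1517 CPM in EC, again the next highest. In sNucDrop-seq 11 of 12 measured were higher and 0 lower, and in DroNc-seq 10 of 13 and 0, with medians of 2.46 and 2.42. Without Bgn these were 10 of 11 and 9 of 12. Nid1, the basement membrane linker nidogen, had log2 ratios of 4.32 in sNucDrop-seq and 4.33 in DroNc-seq. Col4a1, a chain of type IV collagen, reached 2.45 and 3.36, and Fbn1, fibrillin, 2.82 and 4.61. Genes of the myofibroblast and scar list, as searched, had few counts in these healthy nuclei. The list was searched for Ccn2. Counts under its older symbol Ctgf, which was far above the other labels, were not included. The list summed to 47 counts in sNucDrop-seq and 127 in DroNc-seq MC nuclei, with 5 of 8 measured genes higher in sNucDrop-seq and 4 of 9 in DroNc-seq (3 of 8 without Fn1), where Col8a1 and Itgbl1 were lower.

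Genes of other cell types were measured as a check on what else the label holds. The podocyte list had 1 of 9 genes higher and 2 lower in sNucDrop-seq, and 0 higher and 6 lower in DroNc-seq. Of that list, Nphs1, a slit diaphragm protein, had 7 counts in sNucDrop-seq and 5 in DroNc-seq. In DroNc-seq 1 nucleus held 236 of the 515 podocyte list counts. The endothelial list had 4 of 10 genes higher and 1 lower in sNucDrop-seq and 1 higher in DroNc-seq. Its sum was higher in MC nuclei in both libraries. In sNucDrop-seq it held 880.2 CPM, against 544.0 CPM elsewhere, a log2 ratio of 0.69 (0.44 to 0.94). In DroNc-seq it held 657.1 CPM, against 437.0 CPM, a log2 ratio of 0.59 (0.36 to 0.81). The 5 highest MC nuclei held 35.2% of its counts in sNucDrop-seq and 34.3% in DroNc-seq. The highest member reached 2.89 in sNucDrop-seq and 3.88 in DroNc-seq. Pecam1, an endothelial adhesion molecule, had 43.4 CPM in MC nuclei and 44.8 CPM elsewhere in sNucDrop-seq, and 68.8 CPM in MC nuclei and 45.7 CPM elsewhere in DroNc-seq. The macrophage list had 10 and 25 counts, with 0 of 3 measured genes higher in sNucDrop-seq and 1 of 5 in DroNc-seq. Nerve and glia genes had 0 counts in sNucDrop-seq and 6 in DroNc-seq, mesothelial genes 1 and 2, lymphocyte genes 5 and 7, and immediate early genes 17 and 24. Proximal tubule genes were lower for 6 of 8 in both libraries and higher for 0. Distal nephron genes were lower for 1 of 10 and higher for 1 in sNucDrop-seq, and lower for 6 of 10 and higher for 0 in DroNc-seq; in sNucDrop-seq 5 nuclei held 56.8% of their counts and in DroNc-seq 51.6%. The part of these nuclei in the values above was not tested, except that leaving out MC nuclei with 3 or more podocyte or endothelial UMIs gave fibroblast log2 ratios of 4.23 in sNucDrop-seq and 4.95 in DroNc-seq.

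The lists were next read nucleus by nucleus, after thinning every barcode to 500 UMIs. A UMI of the fibroblast list was found in 83.7% of sNucDrop-seq MC nuclei (76.7 to 89.3) and 87.7% of DroNc-seq MC nuclei (81.2 to 92.5), against 10.7% of PT(S1-S2) nuclei in both libraries and 10.9% and 7.55% of EC nuclei. The PT(S1-S2) share is given as a comparison. Free RNA and these nuclei's own RNA of list genes can both give such UMIs and were not told apart. Median depths were 849 UMIs for MC and 1032 UMIs for PT(S1-S2) in sNucDrop-seq, and 1378.5 and 1471 UMIs in DroNc-seq. The mesangial list was found in 57.8% (49.4 to 65.9) of sNucDrop-seq and 78.8% (71.2 to 85.1) of DroNc-seq MC nuclei, against 36.1% and 45.3% of EC and 16% and 16.5% of PT(S1-S2). The smooth muscle list was found in 56.5% and 63% of MC nuclei, against 16.3% and 11.3% of EC and 12.4% and 7.78% of PT(S1-S2). The pericyte list was found in 21.8% and 23.3% of MC nuclei, against 3.4% and 4.72% of EC and 4.27% and 3.28% of PT(S1-S2). The MC share was the highest of the 3 labels for each list. Without thinning the MC shares of the fibroblast, mesangial, pericyte and smooth muscle lists were 93.2%, 74.1%, 32.7% and 72.1% in sNucDrop-seq, and 97.3%, 92.5%, 45.9% and 88.4% in DroNc-seq.

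**Figure D3:**
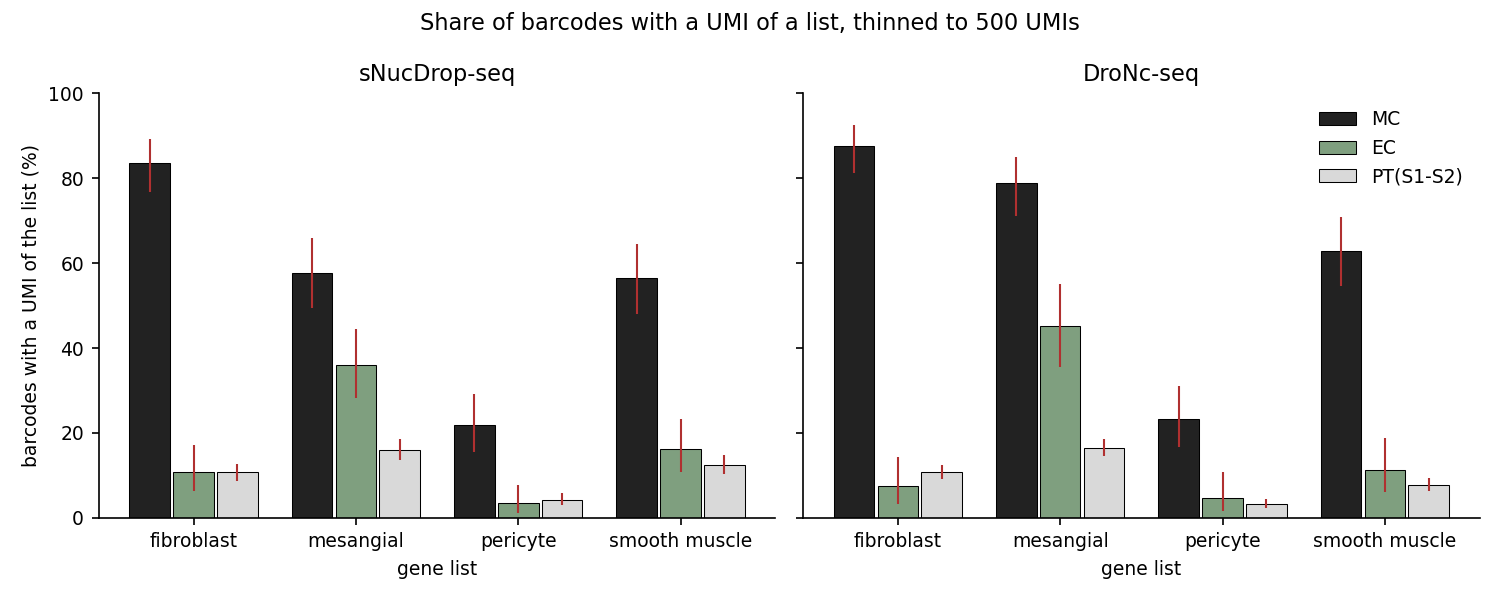
Share of barcodes with at least 1 UMI of a list after thinning to 500 UMIs, in percent, for MC, EC and PT(S1-S2), with exact 95% intervals (red). MC has the tallest bar for each list in both libraries; the fibroblast list is in 83.7% and 87.7% of MC nuclei, and the pericyte list in 21.8% and 23.3%.

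Fibroblast genes were found in most nuclei that had mesangial, pericyte or smooth muscle genes. After thinning, 75 of 147 sNucDrop-seq and 101 of 146 DroNc-seq MC nuclei had UMIs of both the fibroblast and the mesangial list. Of nuclei with a mesangial UMI 88.2% had a fibroblast UMI in sNucDrop-seq, against 77.4% of those without, and in DroNc-seq these shares were 87.8% and 87.1%. Without thinning they were 95.4% and 86.8% in sNucDrop-seq, and 97% and 100% in DroNc-seq. For the pericyte list the thinned shares lay the other way in both libraries, with 75% of nuclei with and 86.1% of those without a pericyte UMI in sNucDrop-seq, and 82.4% and 89.3% in DroNc-seq. For the smooth muscle list they were 81.9% and 85.9% in sNucDrop-seq, and 89.1% and 85.2% in DroNc-seq. None of these differences was tested.

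Single genes were read against 5 fibroblast genes chosen after values were seen (Pdgfra, Abca8a, Lama2, Col1a2 and Col14a1), without thinning. At least 1 UMI of the 5 was found in 115 of 147 sNucDrop-seq and 131 of 146 DroNc-seq MC nuclei. Among nuclei with Itga8 this was 14 of 16 in sNucDrop-seq, against 101 of 131 without Itga8, and 86 of 92 in DroNc-seq, against 45 of 54. Among nuclei with Piezo2 it was 3 of 8 in sNucDrop-seq, against 112 of 139 without Piezo2, and 14 of 20 in DroNc-seq, against 117 of 126. With Acta2 it was 3 of 7 in sNucDrop-seq, against 112 of 140 without, and 8 of 12 in DroNc-seq, against 123 of 134. The share was thus lower in nuclei with Piezo2 or Acta2 in both libraries. With Rgs5 it was 3 of 5 in sNucDrop-seq, against 112 of 142 without, and 3 of 5 in DroNc-seq, against 128 of 141. With Myh11 it was 2 of 5 in sNucDrop-seq, against 113 of 142 without, and 8 of 8 in DroNc-seq, against 123 of 138. Rgs5 went the way of Piezo2 and Acta2, and Myh11 did so in sNucDrop-seq and not in DroNc-seq. Other genes went either way. With Fhl2 the share was 82.1% in sNucDrop-seq, against 75.8% without, and 94.3% in DroNc-seq, against 82.8%. Pdgfrb and Gata3 likewise had the higher share with the gene in both libraries. With Ebf1 it was 72.7%, against 82.7% without, and 88.3%, against 94.3%, and Ren1 also lay lower in both. Des and Notch3 differed in direction between the libraries. Median depths were 1014.5 UMIs with and 839 without Piezo2 in sNucDrop-seq, and 1686 and 1333.5 UMIs in DroNc-seq. These are counts of a few nuclei; the differences, and whether these are separate cells, were not tested.

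Of all labels, the MC sum was most like EC, PT(S1-S2) and LH(AL) in sNucDrop-seq (Spearman correlations of 0.72, 0.70 and 0.68 over 8063 genes) and like EC, LH(DL) and Pod in DroNc-seq (0.71, 0.70 and 0.66 over 7787 genes), for genes whose mean reached 20 CPM. MC in one library against MC in the other had 0.73 over 7814 genes. These sums share their library's free RNA and depth, so the values are a description of these sums.

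The MC nuclei of the 2 libraries were then compared with each other, sNucDrop-seq over DroNc-seq, beside the same ratio in all other labels. Among 4580 genes, 400 (8.73%) were higher by 2-fold or more in MC and 375 (8.19%) were lower, with a median of -0.01. In the other labels 6.91% of 14330 genes were higher and 3.96% lower. The highest were genes that were also higher in the sNucDrop-seq library's other labels. Cyp2j13, a cytochrome P450 gene, had 63 counts in sNucDrop-seq MC nuclei and 0 in DroNc-seq MC nuclei, a log2 ratio of at least 5.09 against a floor of 3 counts, and 7.46 in the other labels. Cyp2e1 had 29 and 0 counts and Cyp4a32 21 and 0, log2 ratios of at least 3.97 and at least 3.51. Kap, the androgen-regulated protein of the mouse proximal tubule, had 4005 CPM in sNucDrop-seq and 271.3 CPM in DroNc-seq MC nuclei, a log2 ratio of 3.88 in MC and 3.11 elsewhere. Cyp4b1 stood at 4.35 in MC and 5.76 elsewhere, and Ces1f, a carboxylesterase, at 5.22 and 3.96.

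Among the lowest, some followed the other labels and some did not. Ubr3, a ubiquitin ligase, had a log2 ratio of -2.72 in MC and -3.11 elsewhere, and Rdh16f2, a retinol dehydrogenase, -3.28 and -3.35. Itga8 stood at -2.92 (-3.64 to -2.28) in MC and -0.92 elsewhere, and Rnf144a, a ubiquitin ligase, at -4.35 (1 count in sNucDrop-seq) and -0.15. Hpgd, the enzyme that inactivates prostaglandins, stood at -3.24 and -1.75, and Arntl, the clock gene, at -3.30 and -1.12. By list, 3 of 8 measured mesangial genes were lower in sNucDrop-seq MC nuclei (Itga8, Piezo2 and Serpine2) and 0 higher, and the sums had a log2 ratio of -0.91 (-1.11 to -0.71). The fibroblast list was nearer to even, with 1 of 10 lower (Col3a1), 0 higher and -0.20 (-0.33 to -0.08) for the sums. The pericyte and smooth muscle sums stood at -0.39 (-0.80 to 0.01) and -0.15 (-0.36 to 0.06). As a sum, mesangial genes made a larger part of the label in DroNc-seq, and platform and animal cannot be told apart in this. Itga8 had the lowest ratio of the 8 measured members, and the sum was not repeated without it.

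**Figure D4:**
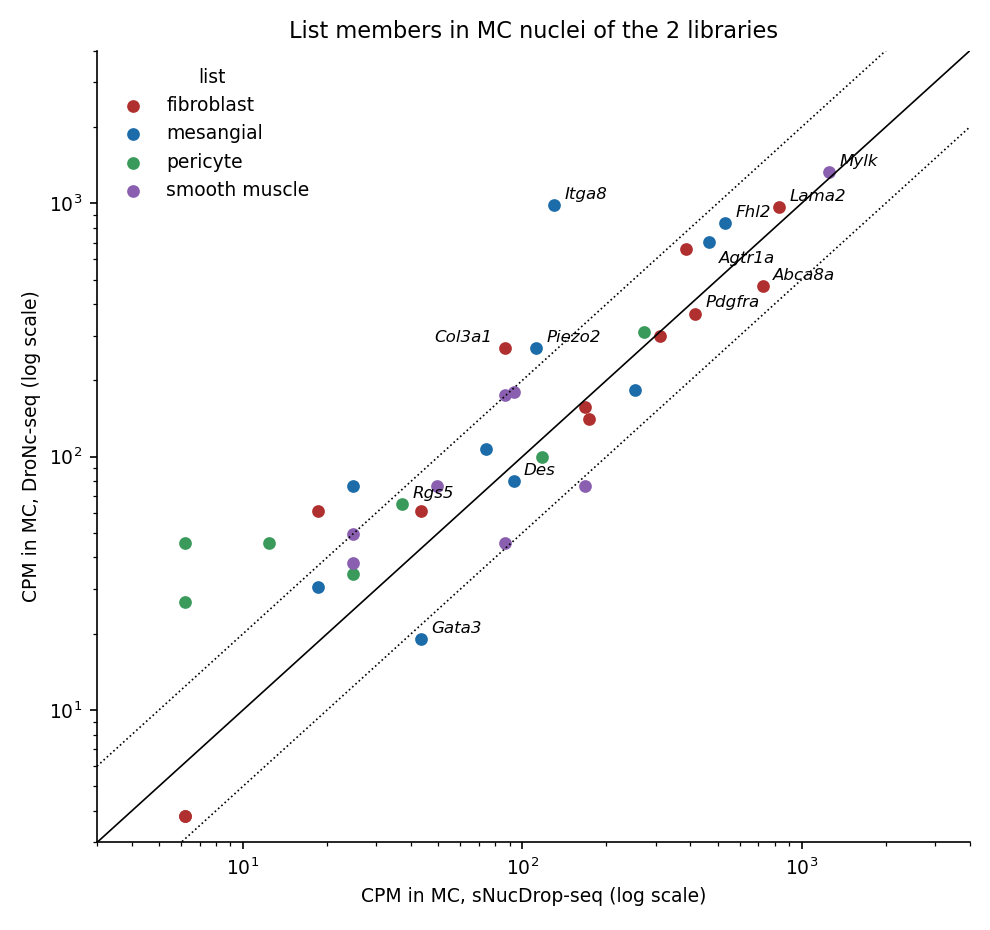
Level of list members with a count in both libraries in MC nuclei, sNucDrop-seq on the x axis and DroNc-seq on the y axis, in CPM on log axes; the solid line marks equal levels and the dotted lines 2-fold. Most members lie between the dotted lines; Itga8, at 130.2 CPM in sNucDrop-seq and 985.7 CPM in DroNc-seq, lies farthest above among members over 100 CPM in both.

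The 16 MC nuclei of the healthy 10x library looked different, on 15347 UMIs in all. Pdgfra had 1 count, and Pdgfrb, Des, Ren1, Rgs5 and Acta2 were listed at 0. Gata3 had 9 counts or 586.4 CPM (268.2 to 1113) in these nuclei and 106.1 CPM in the other 10x labels, Piezo2 10 counts or 651.6 CPM, against 13.3 CPM, and Ebf1 65 counts or 4235 CPM, against 53.2 CPM. The mesangial list held 54 counts (3519 CPM in MC and 311.4 CPM elsewhere, log2 ratio 3.50, 3.07 to 3.89) and the fibroblast list 26 (1694 CPM in MC and 157.2 CPM elsewhere, log2 ratio 3.43, 2.80 to 4.00). Gata3 was thus above the pooled rest in that library, though not above CD-PC, which held 604.7 CPM. The 10x nuclei held 58 counts of Slc34a1, 52 of them in 1 nucleus. The 7 Drop-seq cells had 0 counts of the label markers and 29.9% mitochondrial UMIs. Of 9311 UMIs they held 2 counts of the fibroblast list, 3 of the mesangial list and 7 of the stromal transcription factors.

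Last, the healthy MC nuclei were set beside Fib.1, the larger fibroblast label of the obstructed kidney. The 2 differ in platform, animal, label scheme and obstruction, which cannot be told apart. A gene could count as measured through the counts of 1 side alone. List counts against Fib.1 were not repeated without such genes. In sNucDrop-seq, 942 of 4675 measured genes (20.1%) were at least 2-fold higher in MC nuclei and 1151 (24.6%) lower; in DroNc-seq, 1122 of 5295 (21.2%) were higher and 1184 (22.4%) lower. The medians were -0.12 and -0.03. Of 4518 genes measured in both, 613 (13.6%) were higher and 785 (17.4%) lower in both. The MC sum had Spearman correlations of 0.45 in sNucDrop-seq (7718 genes) and 0.50 in DroNc-seq (7518 genes) with Fib.1, the highest of the UUO labels for both.

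Several fibroblast genes differed little between these MC nuclei and Fib.1. Lama2 and Col1a2 had log2 ratios of -0.06 (-0.37 to 0.25) and 0.11 (-0.43 to 0.64) in sNucDrop-seq, and 0.16 (-0.10 to 0.42) and 0.05 (-0.42 to 0.52) in DroNc-seq. Pdgfrb stood at 0.55 (-0.03 to 1.12) and -0.01 (-0.58 to 0.55). The fibroblast list had 3 of 11 measured genes higher and 3 lower in sNucDrop-seq and 3 of 12 higher and 2 lower in DroNc-seq. Its sums had log2 ratios of 0.15 (0.02 to 0.28) and 0.36 (0.25 to 0.47). In the healthy 10x MC nuclei Lama2 had 2 counts (-2.73, -5.78 to -0.86), Col1a2 had 1 (-2.14, -7.46 to 0.38), and the list's sum stood at -1.09 (-1.72 to -0.53).

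Some stromal genes were higher in the MC nuclei of the 2 libraries. Abca8a had 725.3 CPM in sNucDrop-seq and 469.9 CPM in DroNc-seq MC nuclei, against 25.1 CPM in Fib.1, log2 ratios of 4.85 and 4.23. Pdgfra stood at 1.81 and 1.63, Col14a1 at 1.32 and 2.10, and Agtr1a at 1.81 and 2.40. In the 16 healthy 10x MC nuclei, on Fib.1's platform, Pdgfra had 1 count (-0.86, -6.21 to 1.72) and Col14a1 1 count (-1.24, -6.58 to 1.31). Neither was shown to be higher or lower there. Abca8a had 6 counts (3.96, 2.11 to 5.76) and Agtr1a 5 (1.29, -0.41 to 2.65) in those nuclei. Of the genes that the naming rule returned, Igfbp3, an insulin-like growth factor binding protein, had 551.7 CPM in sNucDrop-seq and 569.3 CPM in DroNc-seq MC nuclei, against 14.4 CPM in Fib.1, and Peg3, an imprinted zinc finger gene, 613.7 and 809.9 CPM, against 17.9 CPM. The other 4 highest were proximal tubule genes: Slc5a12, a lactate transporter (6.34 and 7.21), Slc34a1 (6.68 and 6.11), Pck1 (at least 5.74 and at least 4.44) and Fbp1 (at least 4.79 and at least 4.34), the last 2 being enzymes of gluconeogenesis with 0 counts in Fib.1. The proximal tubule list as a whole summed to 7674 CPM in sNucDrop-seq and 3725 CPM in DroNc-seq MC nuclei, against 240.5 CPM in Fib.1, and its part in the other values was not tested.

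As a sum, genes of the scar list were lower in MC nuclei. The sum left out counts under Ctgf, the older symbol of the list member Ccn2. The myofibroblast and scar list held 291.4 CPM in sNucDrop-seq MC nuclei, against 1726 CPM in Fib.1, a log2 ratio of -2.57 (-3.03 to -2.13), with 5 of 5 measured genes lower. In DroNc-seq it held 485.2 CPM in MC nuclei, against 1712 CPM, -1.82 (-2.11 to -1.53), with 4 of 6 lower and 1 higher (Tgfb1). Tnc, the matricellular protein tenascin C, had 2 and 3 counts in MC nuclei and 69 in Fib.1. It was thus measured only with its Fib.1 counts and had to be lower. The numbers of lower genes were not recounted without such members, while the list sums do not use that filter. Col12a1, a fibril-associated collagen, had 43.4 CPM in sNucDrop-seq and 53.5 CPM in DroNc-seq MC nuclei, against 491.7 CPM in Fib.1. Col5a2 and Col8a1 stood at -2.86 and -2.46 in sNucDrop-seq and -2.27 and -2.57 in DroNc-seq, while Fn1, fibronectin, stood at -1.60 and -0.26 (-0.92 to 0.40). Acta2 stood at -2.42 and -1.80. Col1a1 had 0 counts in sNucDrop-seq MC nuclei, a log2 ratio at or below -2.95, and stood at -2.42 in DroNc-seq. Col18a1, a basement membrane collagen, had 86.8 CPM in sNucDrop-seq and 137.5 CPM in DroNc-seq MC nuclei, against 1658 CPM in Fib.1. In the 16 healthy 10x MC nuclei, on Fib.1's own platform, the scar list had 9 counts or 586.4 CPM, against 1687 CPM in Fib.1. The log2 ratio was -1.52 (-2.66 to -0.59), with 1 of 5 measured genes lower (Col5a2) and 0 higher. Col12a1 had 5 counts there (log2 ratio -0.59, -2.24 to 0.66) and Col8a1 3 counts (-0.48, -2.79 to 1.12). Those 2 genes were not shown to be lower on that platform. Col18a1 had 10 counts (-1.35, -2.42 to -0.46).

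**Figure D5:**
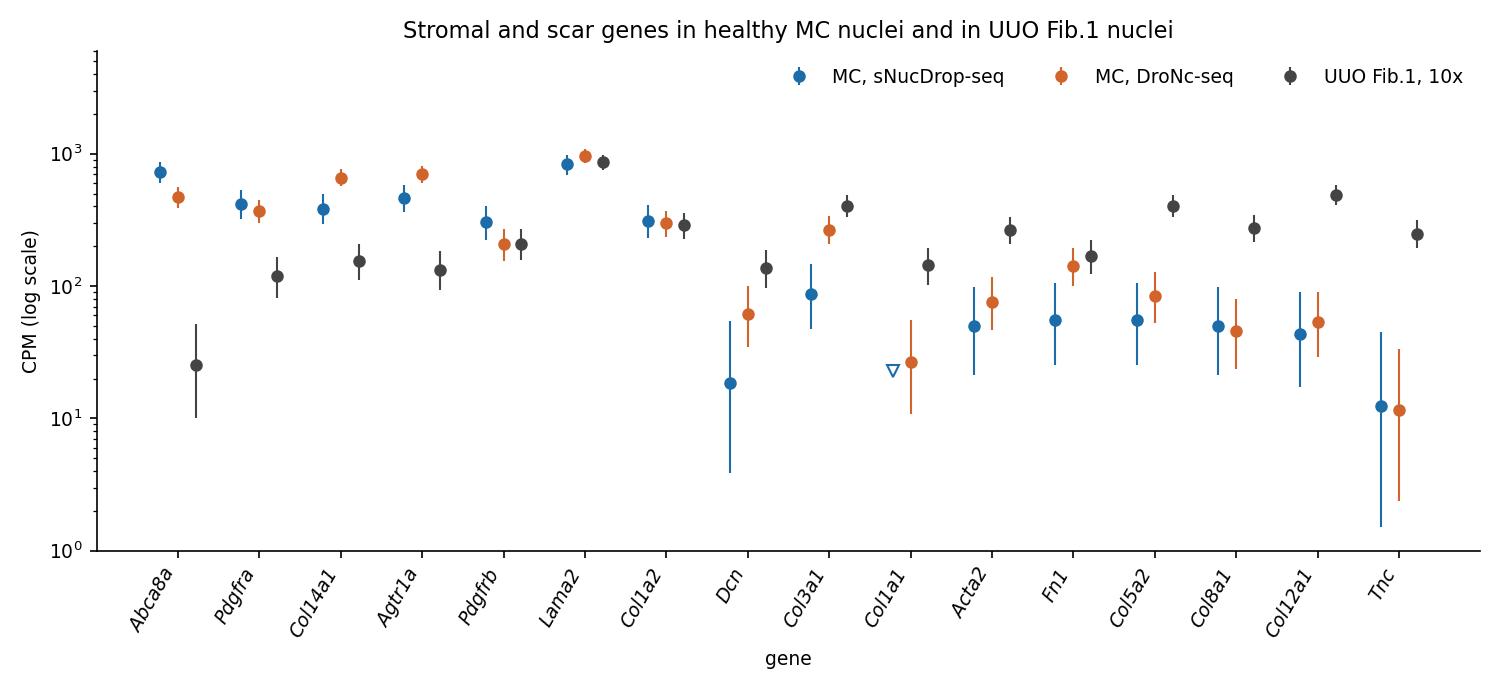
Level of stromal and scar genes in MC nuclei of the 2 healthy libraries and in UUO Fib.1 nuclei, in CPM on a log axis, with exact 95% counting intervals; the open triangle is the upper bound of a sum of 0 counts (Col1a1 in sNucDrop-seq). Abca8a, Pdgfra, Col14a1 and Agtr1a are higher in MC, Lama2 and Col1a2 overlap, and Col12a1, Tnc, Acta2 and Col1a1 are higher in Fib.1.

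The 6 genes lowest against Fib.1 by the naming rule were not fibroblast genes in particular. Spp1, osteopontin, had 62 CPM in sNucDrop-seq and 95.5 CPM in DroNc-seq MC nuclei, against 3772 CPM in Fib.1, but it was higher still in UUO Mac (6254 CPM) and TAL (4945 CPM). Clu, clusterin, had 6.2 CPM in sNucDrop-seq and 26.7 CPM in DroNc-seq MC nuclei, against 621.0 CPM in Fib.1 and 1129 CPM in UUO CNT. Kcnip4, a potassium channel partner, had 1 count in sNucDrop-seq and 4 in DroNc-seq MC nuclei, against 606.6 CPM in Fib.1 and 3976 CPM in UUO PT(S2). Pdia3, a chaperone of the endoplasmic reticulum, stood at -3.99 and -4.39. Zfp568 and Btbd2 stood at -5.92 and -5.39 in sNucDrop-seq and -4.88 and -5.09 in DroNc-seq, but at 0.75 (0.14 to 1.30) and 1.78 (1.26 to 2.27) in the healthy 10x MC nuclei, which share Fib.1's platform. Spp1 and Pdia3 stood at -4.27 (-6.55 to -2.72) and -3.29 (-6.34 to -1.43) in those nuclei.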

How the data were processed

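Nuclei and cells of mouse kidney were profiled in 5 libraries with 1 library per group, so no comparison has a test. The UMI counts were made with zUMIs and deposited as one table for the healthy libraries (19713 genes, 11395 barcodes) and one for the obstructed kidney (21516 genes, 6147 barcodes), per the deposited readme. The submitters' processing notes name STAR 2.5.3a and mm10; for intron counting, gene annotation, barcode filters and clustering, the sources used here give nothing. Labels are the authors' deposited annotation, with 0 value columns left without a sample.

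Counts were summed per label and library with Python 3.11.15, numpy 2.4.6 and scipy 1.17.1, and figures drawn with matplotlib 3.10.9. Sums have exact Poisson, ratios exact conditional and shares exact Clopper-Pearson 95% intervals, for counting error only. Genes counted as measured had at least 20 counts over the 2 sums and were called at 2-fold or more; a sum of 0 was set at a floor of 3 counts. List counts were repeated, as a choice made after seeing the data, with genes of at least 20 counts in the other labels alone. Sums were also scaled with TMM (edgeR 4.0.16, R 4.3.3). No doublet caller was run; barcodes above 3 label medians were left out as an alternative. Library totals ran between 2947137 and 7411036 UMIs. The sum and ratio steps were tested on simulated data.

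Leading genes are the 16 highest and 6 lowest by the smaller over both libraries of the interval bound nearest to 0 (mitochondrial, ribosomal, Gm and Rik genes left out); for the other comparisons 6 each way. Of the 16 highest, 15 are described and drawn, and the remaining one is not reported here. List members described are mainly the most abundant in MC nuclei; others were chosen after their values were seen. The members and the 20 gene lists were chosen with earlier results of these data known.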

Additional observations from a re-analysis of the deposited data

Results flagged for a closer look

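With exact intervals clear of 0 in both libraries, 4 genes stood on opposite sides of the other labels in the 2 libraries. The difference between the libraries was not tested. Cyp7b1, an oxysterol hydroxylase, had 148.8 CPM in MC nuclei and 352.9 CPM in other labels in sNucDrop-seq (log2 ratio -1.25), and 137.5 CPM in MC nuclei and 25.7 CPM in other labels in DroNc-seq (2.42). Its MC level was close in the 2 libraries, and the level in the other labels was not. Fmo5, a flavin monooxygenase, had log2 ratios of -1.01 in sNucDrop-seq and 1.38 in DroNc-seq. Prkcq, a protein kinase C, had 1.35 in sNucDrop-seq and -1.31 in DroNc-seq. Rap1gds1, a regulator of small GTPases, had 68.2 CPM in MC nuclei and 143.4 CPM in other labels in sNucDrop-seq (-1.07), and 351.5 CPM in MC nuclei and 156.2 CPM in other labels in DroNc-seq (1.17).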

How the results depend on the processing

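No paired analysis was possible because each group had 1 library and the labels carry no replicate numbers. Under the alternatives 0 of the log2 ratios of lists and named genes turned direction. Numbers of genes and shares of nuclei were not checked for direction. Against Fib.1 more genes were lower than higher in both libraries, and with at least 1 count more were higher than lower. Genes higher in MC nuclei than in other labels numbered 1741 in sNucDrop-seq, and 2883 with at least 1 count, 596 with at least 100 counts and 969 without proximal tubule in the other labels; in DroNc-seq they numbered 1809, and 725 with at least 100 counts and 1159 without proximal tubule. Between the libraries in MC nuclei, 400 higher and 375 lower became 2098 and 1346 with at least 1 count, and 38 and 38 with at least 100. Against Fib.1, sNucDrop-seq MC nuclei had 942 higher and 1151 lower, and 3211 and 2152 with at least 1 count, 117 and 222 with at least 100, and 553 higher in barcodes of at least 1000 UMIs. DroNc-seq MC nuclei had 1122 and 1184, and 3043 and 2338 with at least 1 count and 201 and 213 with at least 100; the scar list's -1.82 was -1.45 without barcodes above 3 medians.

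The fibroblast list's 4.08 in sNucDrop-seq was 3.91 with TMM, 4.29 as a mean over barcodes, 4.26 without barcodes above 3 medians, 3.84 at 1000 UMIs or more and 4.23 without MC barcodes with 3 or more podocyte or endothelial UMIs. The 4.77 in DroNc-seq was 4.88 without barcodes above 3 medians, 4.65 with labels weighted equally and 4.95 without podocyte or endothelial UMIs. The mesangial list's 2.27 in sNucDrop-seq was 1.92 without proximal tubule and 1.85 with labels weighted equally; its 3.19 in DroNc-seq was 3.39 without barcodes above 3 medians, 3.06 without proximal tubule, 2.97 with labels weighted equally and 3.36 without podocyte or endothelial UMIs. The pericyte list's 2.25 in sNucDrop-seq was 1.60 at 1000 UMIs or more. The smooth muscle list's 2.63 in sNucDrop-seq was 2.89 as a mean over barcodes, 2.91 without barcodes above 3 medians and 2.88 without podocyte or endothelial UMIs; its 3.32 in DroNc-seq was 3.50 without barcodes above 3 medians, 2.99 without proximal tubule, 3.01 with labels weighted equally and 3.56 without podocyte or endothelial UMIs.

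Shares after thinning to 500 UMIs were, without thinning, 93.2% against 83.7% for the fibroblast list in sNucDrop-seq and 97.3% against 87.7% in DroNc-seq. At 1000 UMIs, which keeps 52 of 147 and 118 of 146 MC nuclei, and without thinning, the mesangial share was 78.8% and 74.1% in sNucDrop-seq and 94.1% and 92.5% in DroNc-seq. The pericyte share was 32.7% without thinning in sNucDrop-seq, and 35.6% and 45.9% in DroNc-seq. The smooth muscle share was 67.3% and 72.1% in sNucDrop-seq and 75.4% and 88.4% in DroNc-seq. The cause of these moves was not tested. For single named genes, 438 of 491 alternative values lay within the interval and 53 outside it in the same direction. At a median of 849 UMIs per sNucDrop-seq MC nucleus, the absence of a UMI does not show that a nucleus lacks a gene.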

Other observations

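Some genes whose symbols were not on the lists were far above the other labels in MC nuclei. They were named after their values were seen. Ctgf, a matricellular growth factor, had log2 ratios of 5.48 in sNucDrop-seq and 3.76 in DroNc-seq. Ctgf is the older symbol of Ccn2, a member of the myofibroblast and scar list, so its counts were missing from that list. Osmr, the oncostatin M receptor, had 5.10 in sNucDrop-seq and 6.08 in DroNc-seq. Gucy1a2, a soluble guanylate cyclase subunit, had 4.47 and 4.94, and Carmn, a long non-coding RNA of smooth muscle, had 4.70 and 5.93.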
